A study of Mus musculus with 6 samples.

Results

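The hypoxia-inducible factor (HIF) pathway was followed in mouse bone marrow-derived macrophages through 10 genes out of the 55263 to which deposited counts could be assigned. The genes were taken by symbol from a fixed list: the alpha subunit genes Hif1a and Epas1, the prolyl hydroxylase genes Egln1, Egln2 and Egln3, and the target genes Vegfa, Hilpda, Bnip3, Ndrg1 and Adm. Each gene's value is the sum of its transcript rows in the deposited count table. Macrophages grown from bone marrow were profiled by RNA sequencing of poly-A selected RNA in 3 groups of 2 libraries each. The first group received LPS (lipopolysaccharide, part of the outer membrane of gram-negative bacteria, which cells sense through TLR4) together with a preparation labelled HACA, which the labels do not spell out. The second group was given LPS alone, and the third was a control labelled wild type, with no treatment named. The labels name no other genotype, strain, dose or time, and the series as a whole concerns a nanomedicine made of hyaluronic acid and tested in psoriasis. Whether the libraries of a group came from different cultures or mice is not stated, so the p-values below measure only the spread between these libraries, which may be technical.

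In cells with enough oxygen, prolyl hydroxylases mark the HIF alpha subunits for binding by the VHL ubiquitin ligase and for breakdown, so the pathway is controlled largely at the protein level. When oxygen or hydroxylase activity is low, the alpha subunits pair with ARNT, bind DNA at short hypoxia response elements and raise genes for glycolysis, blood vessel growth and mitochondrial turnover. Macrophages given LPS are known to raise HIF-1alpha through NF-kB and to use it for glycolysis and cytokine production. HIF protein, hydroxylation and oxygen were not measured here.

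Total counts were 12529874 to 15379496 in the 6 libraries. Genes with at least 10 counts numbered 16642 and 15973 in LPS+HACA, 14006 and 13883 in LPS, and 16507 and 16241 in control, so the LPS libraries had fewer such genes at similar totals. The part of this in the results was not tested. The counts of the 2 libraries of a group differed beyond sampling noise in all 3 groups. The scaling between libraries matters for LPS: TMM factors, edgeR's correction for differing RNA composition, were 1.14 to 1.19 in LPS+HACA, 0.677 to 0.812 in LPS, and 1.16 in both control libraries. With library totals in their place, the median over all genes was -0.69 on the log2 scale for LPS against control and 0.70 for LPS+HACA against LPS, in place of -0.05 and 0.06. Values below are TMM-scaled CPM, which are counts scaled to the library, and a gene is called at an adjusted p under 0.05 (Benjamini-Hochberg) in an edgeR quasi-likelihood fit over 17113 genes. The macrophage gene Lyz2 was at 30360 to 47790 CPM and Csf1r at 19.6 to 54.4 CPM, over all 6 libraries. Cd68 was at 3.25 to 7.03 CPM and Adgre1 at 0.394 to 0.674 CPM. Of 8 macrophage markers tested, Cd14 and Spi1 were called higher in LPS against control (log2 fold change 3.42 and 1.84). Itgam and Mertk were called lower (-3.13 and -1.69), and the other 4 were not called. Over all genes tested, 15.9% were called higher and 14.3% lower. Bases that belong to 1 transcript made up 100% of the exonic bases of Lyz2, 18.2% for Csf1r, 16.8% for Cd68 and 3% for Adgre1. As described below, such bases appear to hold most counts, so these levels cannot be compared between genes.

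The deposited rows were single transcripts, and how reads were assigned to them is not given. Among the 10 genes, transcripts with no bases of their own held 0 counts, except 1 Vegfa transcript with 4. Each gene therefore appears to have been measured mostly over the bases that belong to 1 of its transcripts, which was not tested. These bases made up 100% of the exonic bases of Egln1 and Egln3, 95.4% for Epas1, 90.9% for Adm, 71.6% for Ndrg1, 57.0% for Bnip3, 51.3% for Hilpda, 37.1% for Egln2, 20.6% for Hif1a and 9.75% for Vegfa. For Vegfa, 4 of its 13 annotated transcripts had a count, and 99.2% of its counts lay in rows annotated as retained introns. Its protein-coding rows held 4 counts over the 6 libraries, so the Vegfa values below are not those of the coding messenger RNA. For Hif1a, protein-coding rows held 51.1% of 446 counts, retained introns 25.8% and other rows 23.1%. Protein-coding rows held 77.1% of the Egln2 counts and between 94.3% and 100% for the other 7 genes. For Hif1a, Vegfa and Egln2, a different use of isoforms would look the same as a different level. The share of bases in 1 transcript was also small for some genes given below as at or near 0. It was 1.23% for Tek, 2.3% for Pdgfrb, 2.49% for S100a9, 7.92% for Ncr1 and 11.3% for Ramp3. For Arnt2 it was 16.8%, for Cd8a 17.3%, for Tie1 22.5%, for Pdgfra 24.4% and for Ramp2 34%. Low values of these genes do not show that they were absent.

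**Figure D1:**
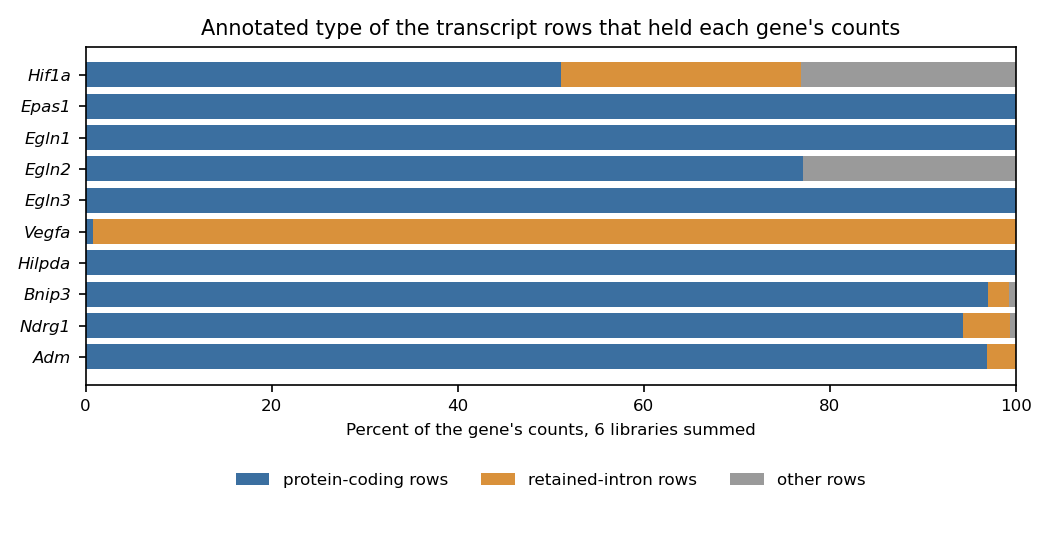
Share of each gene's counts, in percent and summed over the 6 libraries, by the annotated type of the transcript rows that held them. Vegfa lies at 99.2% in retained-intron rows, Hif1a is split between 3 types, and 7 of the genes lie at 94.3% or more in protein-coding rows.

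Some of the genes also share sequence with neighbours or copies. A Bnip3 transcript matched the noncoding gene AC160336.1 over 858 bases at 98.3% identity and the pseudogene Gm6532 over 559 bases at 98.6%, which held 289 and 462 counts against 2237 for Bnip3, so its values are uncertain. Exons of the antisense gene Gm15283, with 750 counts over the 6 libraries, overlap those of Hif1a, and exons of Cyp2t4 on the opposite strand overlap Egln2. The sources used here do not say whether counting used the strand or left out reads over such overlaps. Whether reads of such partners are among those of Hif1a and Egln2 is therefore not known.

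HIF binds DNA at the core letters ACGTG or GCGTG, and the stretches before the start sites of the 3 genes called changed below are shown so that these letters can be read in place. Each is the 250 bases before a RefSeq start site (GRCm38.p6), given 5′ to 3′ on the strand of the gene, with either core on either strand in capitals.
Adm, chr7:110627407-110627656, plus strand: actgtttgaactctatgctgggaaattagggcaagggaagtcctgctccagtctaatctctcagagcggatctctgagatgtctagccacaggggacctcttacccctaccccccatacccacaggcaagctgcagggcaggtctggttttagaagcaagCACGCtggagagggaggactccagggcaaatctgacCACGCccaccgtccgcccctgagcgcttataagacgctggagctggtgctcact
Egln2, chr7:27166803-27167052, minus strand: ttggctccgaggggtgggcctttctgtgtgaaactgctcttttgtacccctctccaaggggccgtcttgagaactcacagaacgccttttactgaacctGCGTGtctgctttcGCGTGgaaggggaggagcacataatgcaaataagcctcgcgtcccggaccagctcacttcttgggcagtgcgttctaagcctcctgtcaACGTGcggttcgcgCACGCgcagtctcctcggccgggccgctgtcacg
Vegfa, chr17:46032378-46032627, minus strand: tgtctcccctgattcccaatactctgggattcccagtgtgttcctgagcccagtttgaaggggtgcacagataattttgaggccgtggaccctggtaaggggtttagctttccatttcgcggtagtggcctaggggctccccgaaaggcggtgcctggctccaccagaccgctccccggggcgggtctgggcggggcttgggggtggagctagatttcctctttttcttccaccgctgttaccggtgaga

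The Adm stretch held GCGTG on the opposite strand with first bases 90 and 54 bases before the start site. The Egln2 stretch held 4 cores: GCGTG at 151 and 137 bases before the start, ACGTG at 48, and GCGTG on the opposite strand at 34. The Vegfa stretch held neither core, while a stretch before a start site within the gene held 2. RefSeq stretches were matched for 8 of the 10 genes, with 11 start sites in all, and 9 of these 11 stretches and at least 1 for each of the 8 genes held a core. Epas1 and Ndrg1 were not matched. Among 32841 such stretches of all genes, 38.6% held either core, 16.6% ACGTG and 28.2% GCGTG. These matches are letters only, and binding was not measured.

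LPS against control showed what LPS alone did to these genes. Adm, which encodes the vessel-dilating peptide adrenomedullin, and Egln2 were higher in LPS, and Vegfa, counted almost wholly in retained introns, was lower. The other 7 genes did not pass the test. Thus 2 of the 10 genes were called higher, against 15.9% of all genes tested, and 1 was called lower, against 14.3%. In either direction, 3 of 10 were called beside 30.1% of all genes, a share near the background. For 6 of the 10 genes LPS and control libraries did not overlap, beside 66.7% of all genes. The median log2 fold change of the 10 genes was 0.18, beside -0.05 over all genes. With library totals in place of TMM factors, 1 of the 10 genes was called higher and 3 lower, beside 1417 higher and 5111 lower of all genes, in place of 2715 and 2442.

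LPS+HACA against LPS showed what the added HACA did in LPS-treated cells, and these values share the LPS libraries with the first comparison. Adm was lower in LPS+HACA, and the other 9 genes did not pass the test. None of the 10 genes was called higher in the edgeR fit, against 5.74% of all genes, and 1 was called lower, against 7.67%. DESeq2 and limma-voom also called none higher, and 2 of the 10 genes had an unadjusted p under 0.05, both lower in LPS+HACA. For 4 of the 10 genes LPS+HACA and LPS libraries did not overlap, beside 57.7% of all genes, and the median log2 fold change was -0.23, beside 0.06. With library totals, 0 of the 10 genes were called higher and 1 lower, beside 3501 higher and 522 lower of all genes, in place of 983 and 1312.

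LPS+HACA against control showed where these genes stood under both agents relative to control cells. In the edgeR fit 0 of the 10 genes were called in either direction, beside 1.15% of all genes. DESeq2 and limma-voom also called 0, and 2 genes, Vegfa and Ndrg1, had an unadjusted p under 0.05. For 7 of the 10 genes LPS+HACA and control libraries did not overlap, beside 46.5% of all genes, and the median log2 fold change was -0.29, beside 0.00.

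**Figure D2:**
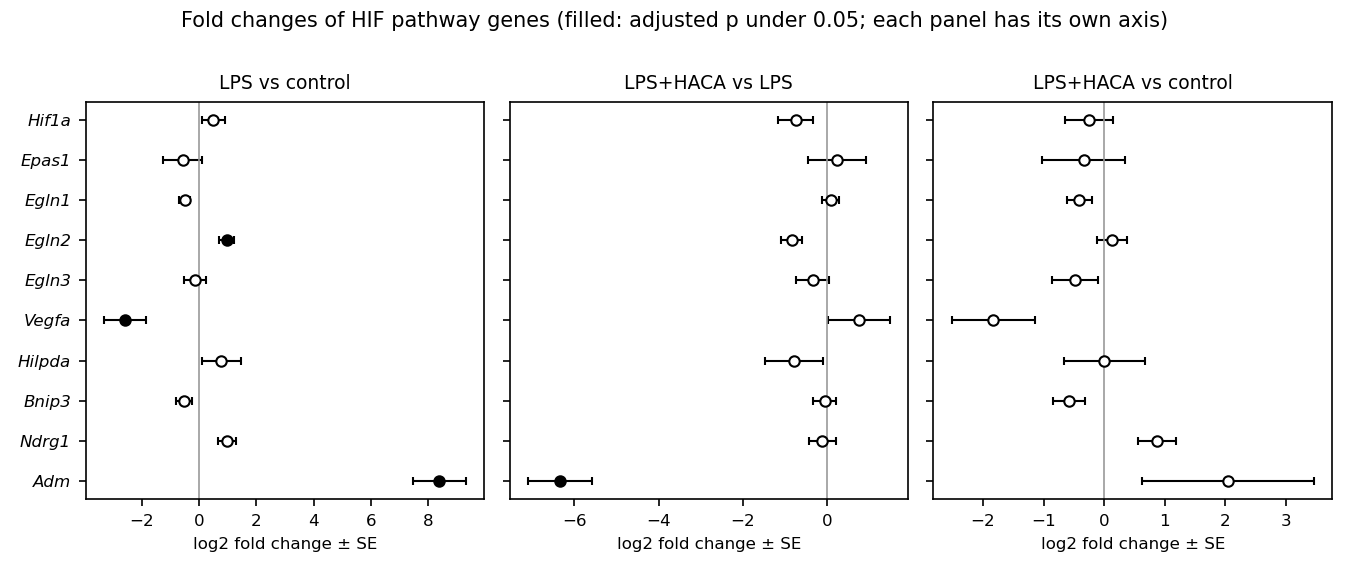
Log2 fold change ± SE of the 10 genes in the 3 comparisons (first-named group over second, 2 libraries each), with filled points for an adjusted p under 0.05 in the edgeR fit and a separate axis per panel. Adm stands at 8.39 in LPS against control and at -6.35 in LPS+HACA against LPS, while the other 9 genes lie between -2.59 and 0.98.

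Of the alpha subunits, Hif1a (chr12:73901375-73947530, plus strand, GRCm38) encodes the widely expressed oxygen-regulated subunit HIF-1alpha. Hif1a had 3.04 and 5.75 CPM in LPS+HACA, 8.77 and 5.88 CPM in LPS, and 4.52 and 5.89 CPM in control. Its highest value was in the first LPS library, the second LPS library lay just below the higher control library, and both LPS libraries lay above both LPS+HACA libraries. The log2 fold change was 0.49 ± 0.40 for LPS against control (SE, n = 2 libraries each, edgeR adjusted p = 0.390) and -0.74 ± 0.41 for LPS+HACA against LPS (adjusted p = 0.258). Against control, LPS+HACA stood at -0.25 ± 0.40 (adjusted p = 0.927). No difference between groups passed the test for Hif1a, and with library totals the value for LPS against control was -0.13. The lower LPS library, at 5.88 CPM, lay just above the higher LPS+HACA library, at 5.75 CPM. Hif1a had 50 to 89 counts per library.

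Epas1 (chr17:86753700-86833410, plus strand) encodes HIF-2alpha, the alpha subunit that is prominent in endothelial cells and in some macrophage states. Epas1 had 15.7 and 4.80 CPM in LPS+HACA, 11.7 and 5.68 CPM in LPS, and 18.7 and 7.28 CPM in control. In each group the first library lay well above the second, and the 3 groups overlapped. On the log2 scale, the difference was -0.58 ± 0.69 for LPS against control (edgeR adjusted p = 0.571), 0.24 ± 0.69 for LPS+HACA against LPS (adjusted p = 0.852) and -0.34 ± 0.68 for LPS+HACA against control (adjusted p = 0.947). Summed stromal markers moved with the same libraries, at 49.8 and 1.35 CPM in LPS+HACA, 32.4 and 2.60 CPM in LPS, and 47.2 and 1.72 CPM in control. The collagen genes Col1a1, Col1a2 and Col3a1 carried this sum, and 7, 3 and 4 of the 7 markers were higher in the first library of LPS+HACA, LPS and control, while Dcn, Lum, Pdgfra and Pdgfrb were each at most 0.385 CPM. Cell cycle genes were also higher in the first libraries, summing to 1523 and 401.8 CPM in LPS+HACA, 2003 and 1087 CPM in LPS, and 776.1 and 218.2 CPM in control. The part of either in the Epas1 values was not tested. In bulk samples, fewer cells of a type and less RNA per cell cannot be told apart.

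**Figure D3:**
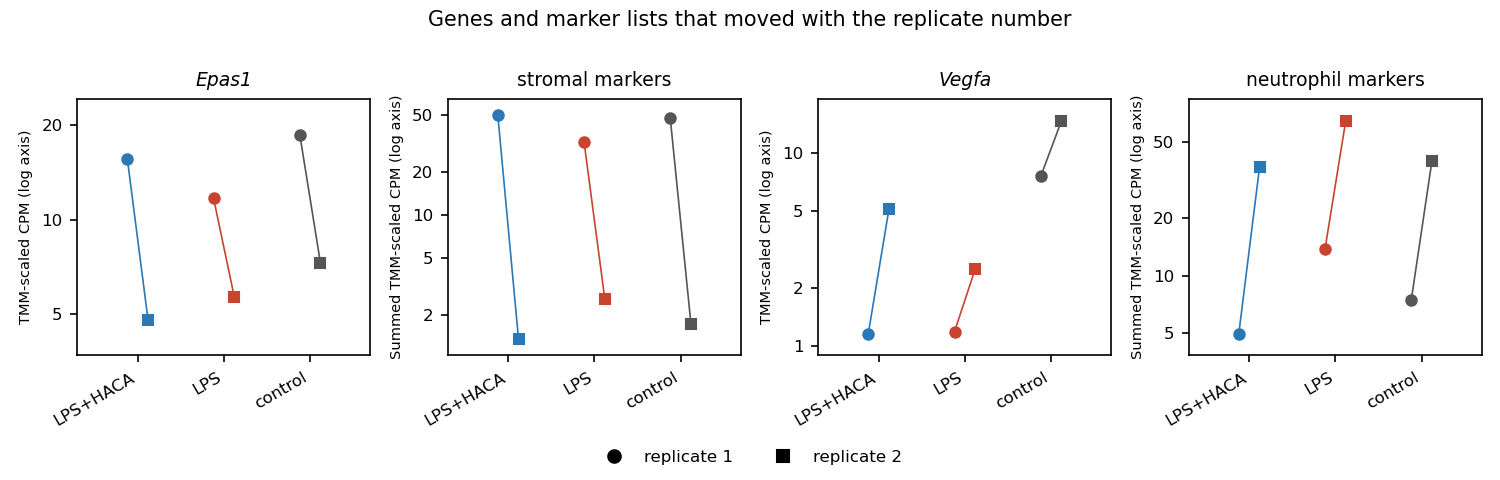
TMM-scaled CPM of Epas1 and Vegfa and summed CPM of the 7 stromal and 6 neutrophil markers in each library, on log axes, with a line joining the 2 libraries of a group. Epas1 and the stromal sum are higher in the first library of each group, and Vegfa and the neutrophil sum are higher in the second.

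The prolyl hydroxylases use oxygen to modify the alpha subunits, and 1 of their 3 genes passed a test. Egln2 (chr7:27158658-27166802, minus strand) encodes PHD1. Egln2 had 16.6 and 17.9 CPM in LPS+HACA, 25.9 and 35.4 CPM in LPS, and 15.4 and 16.0 CPM in control. Both LPS libraries lay above all 4 other libraries, and both LPS+HACA libraries lay just above both control libraries. The log2 fold change was 0.96 ± 0.25 for LPS against control (edgeR adjusted p = 0.0235, higher in 2 of 2 LPS libraries). It was -0.83 ± 0.25 for LPS+HACA against LPS (adjusted p = 0.0665) and 0.13 ± 0.25 for LPS+HACA against control (adjusted p = 0.945). The LPS call ended with library totals (0.30, adjusted p = 0.330), with protein-coding rows only (0.79, adjusted p = 0.0562), and without the first control library (adjusted p = 0.158), the second control library (adjusted p = 0.135) or the second LPS library (adjusted p = 0.0641). It also ended in a fit of the LPS and control libraries alone (0.94, adjusted p = 0.0513). The LPS+HACA value against LPS passed the test in DESeq2 (-0.86, adjusted p = 0.0274) and, in edgeR, without the first LPS library (-1.04, adjusted p = 0.0217).

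Egln1 (chr8:124908587-124949324, minus strand) encodes PHD2, the main oxygen-dependent regulator of HIF-1alpha in most cells. Egln1 had 68.5 and 64.0 CPM in LPS+HACA, 63.3 and 60.8 CPM in LPS, and 90.4 and 85.8 CPM in control. All 4 LPS and LPS+HACA libraries lay below both control libraries, and the 2 libraries of each group lay close together. For LPS against control the log2 fold change was -0.51 ± 0.20 (edgeR adjusted p = 0.0936). It was 0.09 ± 0.20 for LPS+HACA against LPS (adjusted p = 0.789) and -0.41 ± 0.20 for LPS+HACA against control (adjusted p = 0.499). The LPS value passed the test with library totals (-1.14, adjusted p = 0.00812) and with protein-coding rows only (-0.62, adjusted p = 0.0427).

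Egln3 (chr12:54178981-54203860, minus strand) encodes PHD3, itself a gene that HIF raises in many cells. Egln3 had 4.86 and 2.71 CPM in LPS+HACA, 3.94 and 5.68 CPM in LPS, and 5.46 and 5.16 CPM in control. The LPS libraries lay on either side of the control libraries, and both LPS+HACA libraries lay below control but overlapped LPS. Fitted log2 fold changes were -0.14 ± 0.39 for LPS against control (edgeR adjusted p = 0.818), -0.34 ± 0.39 for LPS+HACA against LPS (adjusted p = 0.589) and -0.49 ± 0.38 for LPS+HACA against control (adjusted p = 0.751). Egln3 had 40 to 87 counts per library.

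Among the targets, Adm (chr7:110627661-110629820, plus strand) had values near 0 outside LPS. Adm had 0.122 and 0.203 CPM in LPS+HACA, 6.90 and 20.7 CPM in LPS, and 0.0627 and 0 CPM in control. Both LPS libraries stood far above all 4 others, and the second LPS library was well above the first. The summed counts were 5 in LPS+HACA, 285 in LPS and 1 in control. The scaled ratio of summed counts was 431.1 for LPS to control, with an exact 95% interval of 76.8 to 17090 that covers counting error only. For LPS+HACA to LPS the ratio was 0.0115 (0.00371 to 0.0272), and for LPS+HACA to control it was 4.97 (0.556 to 235.0).

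The fitted log2 fold change of Adm was 8.39 ± 0.93 for LPS against control (edgeR adjusted p = 0.000719, higher in 2 of 2 LPS libraries). It was -6.35 ± 0.76 for LPS+HACA against LPS (adjusted p = 0.00489, lower in 2 of 2 LPS+HACA libraries) and 2.04 ± 1.42 for LPS+HACA against control (adjusted p = 0.699). With so few counts outside LPS, these fitted sizes depend on the prior count. Both calls held in each of the 16 alternative settings, where the LPS value ran from 7.41 to 10.52 and the LPS+HACA value from -6.94 to -5.35.

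Vegfa (chr17:46016993-46032369, minus strand) encodes the growth factor that drives blood vessel growth, and its retained-intron counts went the other way from Adm under LPS. Vegfa had 1.15 and 5.14 CPM in LPS+HACA, 1.18 and 2.51 CPM in LPS, and 7.59 and 14.8 CPM in control. All LPS and LPS+HACA libraries lay below both control libraries, LPS+HACA spanned the LPS values, and the second library was the higher one in each group. The log2 fold change was -2.59 ± 0.74 for LPS against control (edgeR adjusted p = 0.0352, lower in 2 of 2 LPS libraries), 0.76 ± 0.74 for LPS+HACA against LPS (adjusted p = 0.532) and -1.83 ± 0.69 for LPS+HACA against control (adjusted p = 0.349). The LPS call ended without the first control library (adjusted p = 0.0556), the second control library (adjusted p = 0.164), the first LPS library (adjusted p = 0.234) or the second LPS library (adjusted p = 0.153). The LPS+HACA value against control passed the test with no filter on low counts (-1.82, adjusted p = 0.000606). Over protein-coding rows, Vegfa had too few counts to be tested.

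Summed neutrophil markers were also higher in the second libraries, at 4.98 and 36.7 CPM in LPS+HACA, 13.8 and 64.2 CPM in LPS, and 7.47 and 39.8 CPM in control. Ngp carried most of the sum, 0 of the 6 markers were higher in a first library, and Ly6g and S100a9 were at 0 in every library. Summed T and NK cell markers were higher in the second libraries as well, at 6.13 and 33.6 CPM in LPS+HACA, 5.62 and 34.4 CPM in LPS, and 15.1 and 41.9 CPM in control, with Cd4 carrying most of the sum and Cd3e, Cd8a and Ncr1 at 0 in every library. Their part in the Vegfa values was not tested.

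Ndrg1 (chr15:66929318-66969640, minus strand) encodes a stress-responsive protein that is among the genes raised most steadily by hypoxia. Ndrg1 had 100.9 and 87.2 CPM in LPS+HACA, 77.5 and 124.8 CPM in LPS, and 64.1 and 38.6 CPM in control. All 4 LPS and LPS+HACA libraries lay above both control libraries, and the LPS+HACA libraries lay between the LPS libraries. The log2 fold change was 0.98 ± 0.32 for LPS against control (edgeR adjusted p = 0.0539), -0.11 ± 0.32 for LPS+HACA against LPS (adjusted p = 0.857) and 0.87 ± 0.32 for LPS+HACA against control (adjusted p = 0.331). The LPS value passed the test in DESeq2 (adjusted p = 0.0252), with no filter on low counts (0.96, adjusted p = 0.00784) and without the first LPS library (1.29, adjusted p = 0.0140).

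Bnip3 (chr7:138890836-138909519, minus strand) encodes a mitochondrial protein that marks mitochondria for degradation. Bnip3 had 25.8 and 19.3 CPM in LPS+HACA, 27.3 and 19.4 CPM in LPS, and 35.8 and 31.7 CPM in control. All 4 LPS and LPS+HACA libraries lay below both control libraries, and LPS+HACA and LPS nearly coincided. Fitted log2 fold changes were -0.53 ± 0.27 for LPS against control (edgeR adjusted p = 0.178), -0.05 ± 0.27 for LPS+HACA against LPS (adjusted p = 0.925) and -0.58 ± 0.27 for LPS+HACA against control (adjusted p = 0.474). The LPS value passed the test with library totals (-1.15, adjusted p = 0.0277).

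Hilpda (chr6:29272488-29275446, plus strand) encodes a lipid droplet protein that inhibits the lipase ATGL. Hilpda had 1.82 and 1.22 CPM in LPS+HACA, 0.985 and 4.24 CPM in LPS, and 1.07 and 1.98 CPM in control. The second LPS library was the highest and the first LPS library the lowest of the 6, so LPS overlapped both other groups. Fitted log2 fold changes were 0.78 ± 0.69 for LPS against control (edgeR adjusted p = 0.427), -0.78 ± 0.68 for LPS+HACA against LPS (adjusted p = 0.481) and 0.00 ± 0.67 for LPS+HACA against control (adjusted p = 0.9999). Hilpda had 10 to 44 counts per library.

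**Figure D4:**
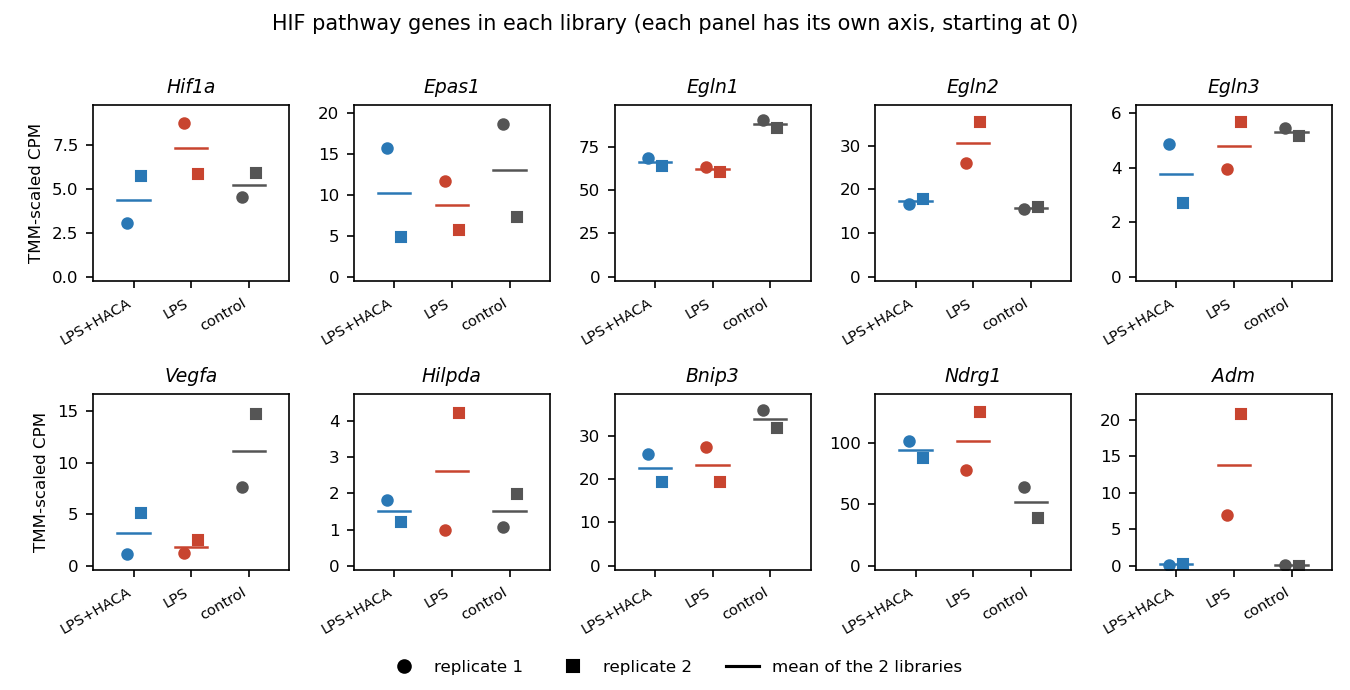
TMM-scaled CPM of the 10 genes in each library of LPS+HACA, LPS and control, with circles and squares for the first and second library of a group and a line at their mean, on a separate axis per gene that starts at 0. Egln2 and Adm are higher in both LPS libraries than in the other 4, Egln1, Vegfa and Bnip3 are highest in control, and Epas1 is split by library within each group.

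The rest of the pathway was followed through 83 further genes in 5 lists, of which 70 could be tested. Of these 70, 19 were called higher and 7 lower in LPS against control, beside 15.9% and 14.3% of all genes, with a median log2 fold change of 0.48 beside -0.05 over all genes. In LPS+HACA against LPS, 4 were called higher and 13 lower, beside 5.74% and 7.67% of all genes, with a median of -0.33 beside 0.06. So the 7 lower calls and the 4 higher calls were no more than at the rate of all genes. For LPS+HACA against control, edgeR called 1 higher and 0 lower, beside 0.894% and 0.257% of all genes, with a median of 0.02 beside 0.00. DESeq2 called 5 higher and 1 lower there, limma-voom called 0, and 12 of the 70 had an unadjusted p under 0.05, 8 of them higher and 4 lower. Some markers of other blood cells moved with LPS too. The immunoglobulin gene Ighm had 12.2 and 6.76 CPM in LPS+HACA, 2.86 and 2.70 CPM in LPS, and 10.2 and 11.3 CPM in control, and was called lower in LPS against control and higher in LPS+HACA against LPS (edgeR adjusted p = 0.00615 and 0.0208). The platelet factor gene Pf4 had 9.66 and 12.1 CPM in LPS+HACA, 18.9 and 31.2 CPM in LPS, and 9.91 and 7.54 CPM in control. It was called the other way in both (adjusted p = 0.0109 and 0.0469). Itga2b, of the same marker list, went against Pf4, with 0.296 and 0.289 CPM in LPS and 0.502 and 0.661 CPM in control. Its log2 fold change was -0.97 ± 0.93 and was not called (edgeR adjusted p = 0.466). Hbb-bs and Hba-a1 were at 0 in every library. Their part in the pathway calls was not tested. With library totals the split of the 70 was 12 higher and 15 lower for LPS against control, beside 1417 and 5111 of all 17113 genes. For LPS+HACA against LPS it was 6 higher and 5 lower, beside 3501 and 522 of all genes.

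Of the other regulators of the pathway, 6 of 16 tested were called higher and 0 lower in LPS against control, beside 15.9% and 14.3% of all genes. Without either control library fewer were called higher, and without the first LPS library more, as over all genes. The median was 0.68 without the first control library and 0.72 without the second. It was 0.78 without the first LPS library and 0.51 without the second. Siah2, a ubiquitin ligase that targets prolyl hydroxylases for breakdown, averaged 102.9 ± 37.7 CPM in LPS and 16.0 ± 1.77 CPM in control (SD, n = 2 each), a log2 fold change of 2.68 ± 0.36 (edgeR adjusted p = 0.00149). Cited2, which competes with HIF for its coactivators, stood at 2.17 ± 0.33 (adjusted p = 0.00272), the chaperone gene Hsp90aa1 at 1.67 ± 0.38 (adjusted p = 0.0140) and the coactivator gene Crebbp at 0.89 ± 0.23 (adjusted p = 0.0214). Over all 6 libraries the median of the list was 0.78. With library totals, 2 of the 16 were called higher and 2 lower, with a median of 0.12 beside -0.69 over all genes. Arnt, the partner of both alpha subunits, had a log2 fold change of -0.19 ± 0.28 (adjusted p = 0.650), and Arnt2 and Cited4 were at 0 in every library.

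Of the other, non-glycolytic targets, 7 of 26 were called higher and 4 lower in LPS against control, beside 15.9% and 14.3% of all genes, with a median of 0.27. With library totals 4 were called higher and 7 lower, with a median of -0.37 beside -0.69 over all genes. Without either control library or the second LPS library fewer were called higher, as over all genes. The median was 0.21 without the first control library, 0.42 without the second and 0.05 without the second LPS library. Ero1l, which forms disulfide bonds in the endoplasmic reticulum, averaged 356.4 ± 65.1 CPM in LPS and 58.4 ± 2.46 CPM in control, a log2 fold change of 2.61 ± 0.22 (edgeR adjusted p = 0.000288). The collagen cross-linking enzyme gene Lox stood at 3.31 ± 0.93 (adjusted p = 0.0382), the mTOR inhibitor gene Ddit4 at 2.57 ± 0.67 (adjusted p = 0.0292) and the glycogen branching enzyme gene Gbe1 at 2.28 ± 0.48 (adjusted p = 0.00954). In the other direction, the chemokine receptor gene Cxcr4 averaged 10.6 ± 0.0984 CPM in LPS and 154.8 ± 10.8 CPM in control, a log2 fold change of -3.87 ± 0.25 (adjusted p = 0.000138). Mxi1, a MYC antagonist, stood at -1.92 ± 0.38 (adjusted p = 0.00816), and Plod1, a collagen lysyl hydroxylase, at -0.72 ± 0.21 (adjusted p = 0.0357). Protein-coding rows held 8.42% of the Gbe1 counts, and between 94.9% and 100% for the other targets named here.

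Of the glycolytic targets, 2 of 18 were called higher and 2 lower in LPS against control, with a median of 0.30. With library totals 2 were called higher and 5 lower, with a median of -0.35 beside -0.69 over all genes. These counts lie near the shares over all genes. They depended on single libraries, and without the first LPS library the count called higher rose by a larger share than over all genes. The median was 0.15 without the first control library and 0.39 without the second. It was 0.33 without the first LPS library and 0.18 without the second. Pfkp, the platelet form of phosphofructokinase, averaged 340.5 ± 135.4 CPM in LPS and 31.0 ± 0.752 CPM in control, a log2 fold change of 3.46 ± 0.33 (edgeR adjusted p = 0.000424). The glucose transporter gene Slc2a1 stood at 2.41 ± 0.54 (adjusted p = 0.0146). Pfkfb4, whose enzyme sets the level of a phosphofructokinase activator, stood at -1.61 ± 0.30 (adjusted p = 0.00637), and the glucose phosphate isomerase gene Gpi1 at -0.67 ± 0.21 (adjusted p = 0.0427). Protein-coding rows held 4.18% of the Pfkp counts, 0% for Pfkfb4, 47.3% for Gpi1 and 100% for Slc2a1. The values of Pfkp and Pfkfb4 are thus mostly not those of the coding messenger RNA.

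Of the other VEGF family members and receptors, 3 of 8 tested were called higher and 0 lower in LPS against control. This stood beside 15.9% and 14.3% of all genes, with a median of 1.44. With library totals it was 3 and 0, with a median of 0.85 beside -0.69 over all genes. The median was 0.47 without the first LPS library and 0.86 without the second control library, with the same count of calls. Kdr, which encodes the main VEGF-A receptor, averaged 42.7 ± 19.3 CPM in LPS and 3.37 ± 0.739 CPM in control, a log2 fold change of 3.66 ± 0.42 (edgeR adjusted p = 0.000800). The lymphatic growth factor gene Vegfc stood at 2.70 ± 0.42 (adjusted p = 0.00291), and the co-receptor gene Nrp2 at 2.21 ± 0.21 (adjusted p = 0.000364) with 932.9 ± 88.0 CPM in LPS and 201.6 ± 23.0 CPM in control. Kdr is also an endothelial marker, and the other endothelial markers Tek, Tie1 and Emcn were at 0 in every library, with Pecam1, Cdh5 and Egfl7 each at most 1.89 CPM. Of the adrenomedullin receptor parts, Calcrl, the receptor core, averaged 73.4 ± 2.26 CPM in LPS and 6.26 ± 1.09 CPM in control, a log2 fold change of 3.55 ± 0.26 (adjusted p = 0.000181). Ramp1, which with Calcrl forms the CGRP receptor, stood at -1.84 ± 0.37 (adjusted p = 0.00861). The partners Ramp2 and Ramp3, which turn the core into an adrenomedullin receptor, were at 0 in every library. Of their exonic bases 34% and 11.3% belonged to 1 transcript, so true absence cannot be told apart from an effect of the counting.

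The LPS calls of Siah2, Cited2, Ero1l, Cxcr4, Pfkp, Kdr, Vegfc, Nrp2 and Calcrl held in all 16 alternative settings. Bases that belong to 1 transcript made up 9.69% of the exonic bases of Calcrl, 16.4% for Cited2 and 32% for Nrp2. For the others of these genes the share was 50.3% to 91.1%, and for Lox it was 7.26%. Where the share is small, a different use of isoforms would look the same as a different level, in each comparison. This was not tested. Of the 20 pathway genes named for LPS against control, 9 lost their call without the first control library (Mxi1, Gbe1, Ramp1, Slc2a1, Ddit4, Hsp90aa1, Crebbp, Gpi1 and Plod1, edgeR adjusted p = 0.0641 to 0.197) and 8 without the second (Hsp90aa1, Pfkfb4, Lox, Slc2a1, Plod1, Crebbp, Ddit4 and Gpi1, adjusted p = 0.0600 to 0.228). Without the second LPS library, Gpi1, Ddit4, Crebbp, Plod1 and Lox lost theirs (adjusted p = 0.0530 to 0.197), and without the first, Gpi1 and Lox (adjusted p = 0.0814 and 0.147). Gpi1 and Plod1 also lost their call without either LPS+HACA library (adjusted p = 0.0619 to 0.0952). With library totals, Crebbp (0.23, adjusted p = 0.414), Hsp90aa1 (1.01, adjusted p = 0.0644) and Lox (2.65, adjusted p = 0.0539) were not called. With protein-coding rows only, Lox (adjusted p = 0.0552) and Gpi1 (adjusted p = 0.180) were not, and in a fit of the LPS and control libraries alone Plod1 (adjusted p = 0.0552) and Gpi1 (adjusted p = 0.0773) were not. Gpi1 was also not called with no filter on low counts (adjusted p = 0.0963). With protein-coding rows only, 18 of the 20 genes could be tested, and Gbe1 and Pfkfb4 could not. The second LPS library set much of 2 values: without it the log2 fold change of Ddit4 was 1.27 and that of Slc2a1 was 1.46 (adjusted p = 0.0316). Without the first control library that of Lox was 5.76 (adjusted p = 0.0168).

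**Figure D5:**
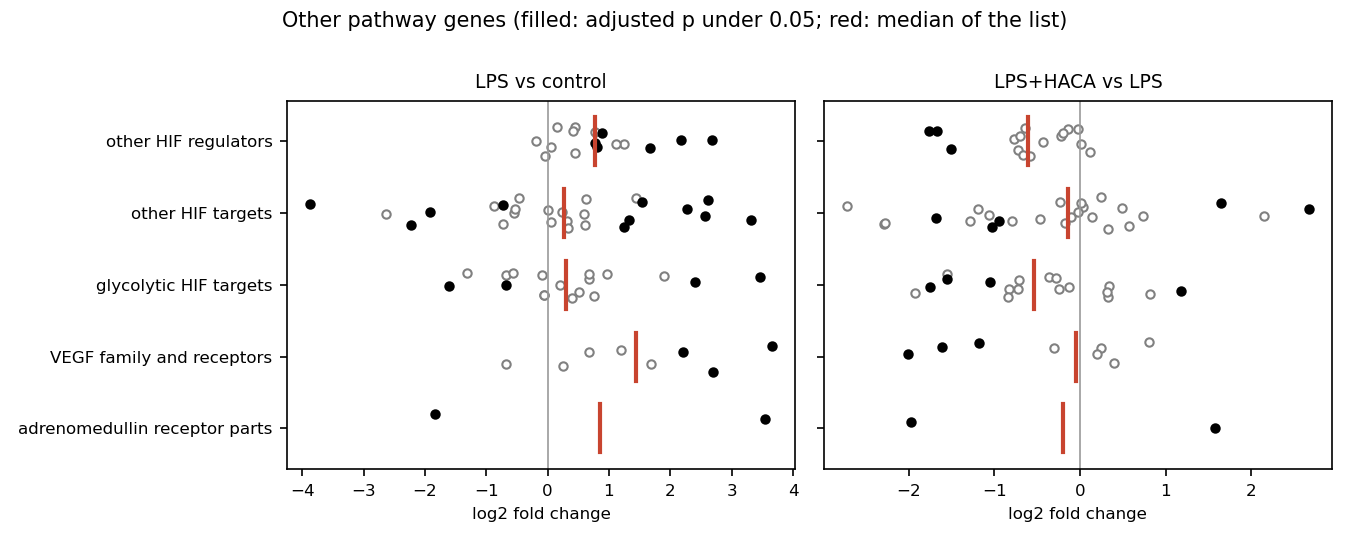
Log2 fold changes of the 70 tested genes of 5 pathway lists in LPS against control and LPS+HACA against LPS, with filled points for an adjusted p under 0.05 in the edgeR fit and a red line at each list's median. In LPS against control the medians run from 0.27 to 1.44, and in LPS+HACA against LPS from -0.61 to -0.05.

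For LPS+HACA against LPS, which shares the LPS libraries with the values above, Ero1l, Calcrl and Cxcr4 were the named pathway genes called in all 16 alternative settings. Ero1l averaged 111.2 ± 0.0234 CPM in LPS+HACA and 356.4 ± 65.1 CPM in LPS, a log2 fold change of -1.68 ± 0.22 (edgeR adjusted p = 0.00569). Calcrl averaged 18.8 ± 2.51 CPM in LPS+HACA and 73.4 ± 2.26 CPM in LPS, a log2 fold change of -1.97 ± 0.25 (adjusted p = 0.00546). Cxcr4 was higher, at 67.1 ± 12.3 CPM in LPS+HACA and 10.6 ± 0.0984 CPM in LPS, a log2 fold change of 2.67 ± 0.24 (adjusted p = 0.00256).

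Over all genes, 5.74% were called higher and 7.67% lower in LPS+HACA against LPS. Of the 16 tested regulators, 0 were called higher and 3 lower: Siah2 (-1.76 ± 0.35, edgeR adjusted p = 0.0180), Hsp90aa1 (-1.67 ± 0.38, adjusted p = 0.0286) and Cited2 (-1.51 ± 0.33, adjusted p = 0.0243). Of the 26 other targets, 2 were called higher and 3 lower. Beside Ero1l, the lower ones were Wsb1, a ubiquitin ligase part (-1.03 ± 0.23, adjusted p = 0.0258), and the cyclin gene Ccng2 (-0.95 ± 0.25, adjusted p = 0.0453). Of the 18 glycolytic genes, Pfkfb4 was higher (1.18 ± 0.30, adjusted p = 0.0408), and Pfkp (-1.75 ± 0.31, adjusted p = 0.0135), the hexokinase gene Hk2 (-1.55 ± 0.38, adjusted p = 0.0342) and Gapdh (-1.05 ± 0.28, adjusted p = 0.0466) were lower. Of the 8 VEGF family and receptor genes, 0 were called higher and 3 lower: Vegfc (-2.01 ± 0.41, adjusted p = 0.0195), Kdr (-1.61 ± 0.38, adjusted p = 0.0312) and Nrp2 (-1.18 ± 0.20, adjusted p = 0.0113). Ramp1 was higher (1.57 ± 0.37, adjusted p = 0.0324). Protein-coding rows held 5.4% of the counts of Wsb1, 15.6% for Ccng2, 4.18% for Pfkp, 4.15% for Gapdh and 0% for Pfkfb4. The list medians were -0.61 for regulators, -0.15 for other targets, -0.54 for glycolytic genes, -0.05 for the VEGF list and -0.20 for the adrenomedullin receptor parts. With library totals the same medians were 0.03, 0.49, 0.12, 0.58 and 0.45, against a median of 0.70 over all genes. The adrenomedullin receptor median is over 2 genes that went opposite ways.

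Most of these calls ended when 1 library was left out. Calls over all genes also fell, except without the first LPS library, where they rose. Such losses of calls are therefore not particular to the pathway genes. For the regulators the median was -0.46 without the first LPS+HACA library and -0.70 without the first LPS library. For the glycolytic genes it was -0.67 and -0.68, and for the VEGF list -0.75 and -0.16. Without the second LPS+HACA library the medians of these lists were -0.54, -0.49 and 0.09, in the same order. Without the second LPS library they were -0.36, -0.43 and -0.67. For the other targets the median was -0.18 without the first LPS+HACA library and -0.34 without the second. It was -0.24 without the first LPS library and 0.00 without the second. Of the 16 pathway genes named for LPS+HACA against LPS, 13 lost their call without the first LPS+HACA library, all but Ero1l, Calcrl and Cxcr4 (edgeR adjusted p = 0.0753 to 0.206). Without the second LPS+HACA library 10 lost theirs (Nrp2, Hk2, Hsp90aa1, Ramp1, Vegfc, Wsb1, Kdr, Pfkfb4, Gapdh and Ccng2, adjusted p = 0.0667 to 0.233). Without either control library the same 9 did (Cited2, Ramp1, Hsp90aa1, Kdr, Wsb1, Hk2, Pfkfb4, Ccng2 and Gapdh, adjusted p = 0.0521 to 0.109). Without the second LPS library Hsp90aa1, Ramp1, Pfkfb4, Hk2, Ccng2 and Gapdh were not called (adjusted p = 0.0655 to 0.124), and without the first, Kdr and Pfkfb4 were not (adjusted p = 0.0543 and 0.0563). The log2 fold change of Kdr was then -1.06, and that of Hk2 without the second LPS library was -0.90. In a fit of the LPS+HACA and LPS libraries alone 11 lost their call, all but Ero1l, Calcrl, Cxcr4, Vegfc and Nrp2 (adjusted p = 0.0523 to 0.115), and with library totals 8 did (Nrp2, Hsp90aa1, Cited2, Hk2, Kdr, Wsb1, Gapdh and Ccng2, adjusted p = 0.0781 to 0.421). Gapdh, Ramp1 and Pfkfb4 were not called by limma-voom (adjusted p = 0.0567 to 0.0607), nor were Hk2 and Wsb1 with protein-coding rows (adjusted p = 0.0678 and 0.0751) and Gapdh with protein-coding genes only (adjusted p = 0.0515). With protein-coding rows only, 14 of the 16 genes could be tested, and Gapdh and Pfkfb4 could not.

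Relative to control, the pathway gene called in LPS+HACA was Calcrl, at 18.8 ± 2.51 CPM in LPS+HACA and 6.26 ± 1.09 CPM in control (1.58 ± 0.25 on the log2 scale, edgeR adjusted p = 0.0298). This call ended with library totals (adjusted p = 0.0558) and in limma-voom (adjusted p = 0.0510). It also ended without any 1 library of either group, in fits that have less power for every gene. The log2 fold change was then 1.46 without the first LPS+HACA library and 1.71 without the second. Without the first control library it was 1.76, and without the second 1.42.

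Of 8700 genes with a mean of at least 5 CPM, those whose log2 CPM followed Hif1a most closely over the 6 libraries were Fam136a (Pearson r = 0.980), P2ry13 (r = 0.967), Zfp959 (r = 0.957), Sfmbt1 (r = 0.952) and Rpp38 (r = 0.940). These values were the highest of many and are a description over 6 libraries that share their groups.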

How the data were processed

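The authors deposited a whole-number read count for each annotated transcript, per the file headers, and FPKM values of the same transcripts, which the deposited table scales by length and library and which were not used here. Per the submitters' processing notes, STAR 2.5.4b, Trim Galore, CASAVA, DESeq2 1.26.0, edgeR 3.28.1 and limma were used, with builds GRCm38 and GRCh38, in an order that is not given. How reads were counted, and whether by strand, is not given in the sources used here. Of 142647 transcripts, 141524 matched GENCODE vM21 and were summed into 55263 genes. The 1123 others, at most 0.115% of the counts in any library, were left out.

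Genes were filtered with filterByExpr, scaled with TMM factors and fitted with edgeR 4.0.16 (R 4.3.3), robust quasi-likelihood, group as the only term, all 6 libraries, 3 residual degrees of freedom. SE is the size of the log2 fold change over the square root of F. The procedure was tested on simulated data with the same mean profile in all libraries and a fixed dispersion. These lacked the differing RNA composition and the shared deviations of same-numbered libraries, so they do not show how the fit behaves under either. Alternatives were 16: other scalings, DESeq2 1.42.0, limma-voom (limma 3.58.1), other filters, protein-coding genes, protein-coding transcript rows (added after seeing the data), only the groups compared, a replicate block, and each library left out. Named pathway genes are, per list, comparison and direction, up to 4 called genes of largest fold with at least 5 CPM in the higher group and no overlap. The 10 genes and the lists were chosen with earlier results of these data known. Near-identical copies were searched for the 10 genes only.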

Additional observations from a re-analysis of the deposited data

How the results depend on the processing

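Adm kept its direction and its call in LPS against control and in LPS+HACA against LPS under all 16 alternatives. Over the 10 genes and their alternatives, 137 of 159 values for LPS against control, 144 of 159 for LPS+HACA against LPS and 151 of 158 for LPS+HACA against control kept their direction and their side of the threshold; a sign change between values that are both under 0.05 was not counted. In the first of these 10 were no longer called, 8 became called and 4 changed sign. The cause was not tested for any of these.

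Of the 10 genes, the count called in LPS against control (2 higher, 1 lower) was 1 and 3 with library totals, 1 higher in a fit of 2 groups, 1 higher with protein-coding rows, and ran from 1 to 3 higher and from 0 to 1 lower with 1 library left out. The count called lower in LPS+HACA against LPS (1) was 2 with DESeq2 and ran from 1 to 2 with 1 library left out. In LPS+HACA against control (0 lower) it was 1 with no low-count filter.

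Of the other pathway genes, the count for LPS against control (19 higher, 7 lower) was 12 and 15 with library totals, 4 lower with protein-coding rows, and 10 to 25 higher and 2 to 7 lower with 1 library left out. For LPS+HACA against LPS (4 higher, 13 lower) it was 5 lower with library totals, 21 lower with DESeq2, 1 higher with limma-voom, 21 lower with no low-count filter, 1 and 4 in a fit of 2 groups, 2 higher with protein-coding rows, and 1 to 3 higher and 2 to 21 lower with 1 library left out. For LPS+HACA against control (1 higher, 0 lower) it was 5 and 1 with DESeq2, 0 higher with limma-voom, 5 and 2 with no low-count filter, 5 and 1 in a fit of 2 groups, and 0 to 5 higher and 0 to 1 lower with 1 library left out.

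With library totals, the log2 fold change of Hif1a in LPS against control changed sign (-0.13), as did Egln3 (0.33), Bnip3 (0.58) and Ndrg1 (0.57) in LPS+HACA against LPS, and Bnip3 did so there with protein-coding rows (0.06). With 1 library left out, values of both signs were found in LPS against control for Epas1 (-1.18 to 0.24, positive without the first control library), Egln3 (-0.43 to 0.11, positive without the first LPS library) and Hilpda (-0.62 to 1.48, negative without the second LPS library). For LPS+HACA against LPS this held for Epas1 (-0.83 to 0.85, negative without the second LPS or the first LPS+HACA library), Egln3 (-0.80 to 0.01, positive without the second LPS+HACA library), Vegfa (-0.68 to 1.50, negative without the second LPS+HACA library), Hilpda (-1.47 to 0.62, positive without the second LPS library), Bnip3 (-0.28 to 0.21, positive without the first LPS or the second LPS+HACA library) and Ndrg1 (-0.41 to 0.28, positive without the second LPS library). For LPS+HACA against control it held for Hif1a (-0.77 to 0.16, positive without the first LPS+HACA library), Epas1 (-1.41 to 0.48, positive without the first control or the second LPS+HACA library) and Hilpda (-0.39 to 0.51, negative without the first control or the first LPS+HACA library).

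The replicate number as a block was fitted although the labels name no shared batch and each group has 2 libraries. Same-numbered libraries deviated together at r = 0.31 for LPS and control, 0.50 for LPS+HACA and LPS, and 0.51 for LPS+HACA and control over 17113 genes. With the block, the 10 genes gave 3 higher and 2 lower in LPS against control, with Egln1 (-0.50, edgeR adjusted p = 0.0405) and Ndrg1 (adjusted p = 0.0208) now called, 2 lower in LPS+HACA against LPS, with Egln2 now called (-0.82, adjusted p = 0.0209), and 1 lower in LPS+HACA against control, Vegfa (-2.01, adjusted p = 0.00866). The other pathway genes gave 24 higher and 9 lower, 25 lower, and 5 higher and 3 lower in the same 3 comparisons.

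Hif1a, Egln3 and Hilpda had 446, 384 and 149 counts over the 6 libraries, and whether depth limits their calls was not tested.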
